A study of Mus musculus with 21 samples.

Results

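Ptf1a, Rbpjl, Bhlha15, Nr5a2 and Gata4, 5 transcription factors of the pancreatic acinar lineage, were followed through the embryonic mouse pancreas. Each factor was read from the rows of the deposited expression table whose platform annotation gave its symbol alone. Each of the 5 had 1 such probe set (10469565 for Ptf1a, 10478474 for Rbpjl, 10527323 for Bhlha15, 10358210 for Nr5a2 and 10420747 for Gata4), so the 5 members were all measured, among 19296 genes. Pancreata had been sorted by Foxa2-Venus Fusion (FVF), in which the endodermal transcription factor Foxa2 is joined to the fluorescent protein Venus, into FVF+ cells that carried the fusion and the remaining FVF- cells. Gene expression was measured on Affymetrix arrays in FVF+ cells at E12.5 (3 arrays), E13.5 (2), E14.5 (3) and E15.5 (3) and in FVF- cells on the same days (2, 2, 3 and 3 arrays), 21 arrays in all. Every sample came from the same mixed strain background (C57-Bl6/SV129/CD1), and the labels name no treatment and no zygosity of the fusion. Foxa2 marks pancreatic epithelium as a whole, so FVF+ cells are not a purified acinar population. The labels do not say whether replicates came from separate litters or sorts, and the p-values therefore cover the spread among these samples, which may be technical.

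Acinar cells make and secrete the digestive enzymes of the pancreas. Ptf1a is a basic helix-loop-helix (bHLH) factor needed first to specify the pancreas and later to drive acinar genes. It binds DNA as the PTF1 complex, with a bHLH partner of the E-protein class and either Rbpj, the DNA-binding protein of Notch signalling, or its acinar-restricted relative Rbpjl. Rbpjl takes the place of Rbpj as acinar cells mature. Bhlha15, also called Mist1, is a bHLH factor that enlarges the secretory apparatus. Nr5a2, an orphan nuclear receptor also called LRH-1, acts with PTF1 on acinar enzyme genes and is also used by early pancreatic progenitors. Gata4 is a zinc-finger factor that acts with its relative Gata6 in early pancreas formation and becomes restricted to acinar cells.

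The 250 bases before the start of Ptf1a, Rbpjl and Bhlha15 are given because PTF1 binds an E-box, written CANNTG, together with a box written TGGGAA, and because these members differ in how they hold those letters. RefSeq (GRCm38.p6) promoter windows were matched by symbol for 4 of the 5 members, all but Gata4. The sequences run 5′ to 3′ on the gene's strand, with matches on either strand to these boxes and to a GATA-type motif (AGATAA) in capitals.
Ptf1a promoter, chr2:19445413-19445662, + strand: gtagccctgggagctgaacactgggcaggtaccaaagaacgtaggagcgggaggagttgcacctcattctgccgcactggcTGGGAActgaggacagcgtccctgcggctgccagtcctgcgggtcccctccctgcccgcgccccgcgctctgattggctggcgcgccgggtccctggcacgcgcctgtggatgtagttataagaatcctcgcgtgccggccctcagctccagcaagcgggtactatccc
Rbpjl promoter, chr2:164402944-164403193, + strand: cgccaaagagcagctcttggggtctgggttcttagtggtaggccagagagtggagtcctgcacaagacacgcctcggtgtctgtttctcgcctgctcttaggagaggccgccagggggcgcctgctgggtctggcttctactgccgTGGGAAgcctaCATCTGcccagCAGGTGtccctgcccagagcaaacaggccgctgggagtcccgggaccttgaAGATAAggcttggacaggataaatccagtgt
Bhlha15 promoter, chr5:144190036-144190285, + strand: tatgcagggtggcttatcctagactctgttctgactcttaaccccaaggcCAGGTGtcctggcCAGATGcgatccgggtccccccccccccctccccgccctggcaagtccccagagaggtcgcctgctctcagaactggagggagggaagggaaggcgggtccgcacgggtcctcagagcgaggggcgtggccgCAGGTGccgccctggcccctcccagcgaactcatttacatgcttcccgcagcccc
The Rbpjl window held 2 CANNTG matches, 1 TGGGAA match 5 bases from the nearer of them, and 1 AGATAA match. The Ptf1a window held 1 TGGGAA match and 0 CANNTG matches, and the Bhlha15 window held 3 CANNTG matches and 0 TGGGAA matches. Nr5a2 had a pair of windows on the minus strand of chromosome 1, with 2 CANNTG and 2 AGATAA matches in one and 3 CANNTG matches in the other. Among all 32851 RefSeq windows of this length, CANNTG occurred in 66.2%, TGGGAA in 21.6%, AGATAA in 9.99%, and CANNTG within 20 bases of TGGGAA in 4.29%. AAGGTCA, the letters of an Nr5a-type motif, occurred in 4.08% of all windows and in 0 of the members' windows. These are matches of letters, not measured binding sites.

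Values are log2 signals after robust multi-array average (RMA), on which a difference of 1 is a doubling, and levels of different genes are not compared because each has its own probes. Foxa2 had signals of 10.87 to 11.51 on the FVF+ arrays and 7.98 to 8.89 on the FVF- arrays. All 7 markers of pancreatic epithelium were called higher in FVF+, with array means of 12.59 to 12.94 in FVF+ and 8.14 to 9.91 in FVF-. All 8 markers of mesenchyme were called lower in FVF+, as were 25.2% of all genes, with array means of 7.64 to 9.16 in FVF+ and 11.28 to 12.30 in FVF-. Of 8 markers of neighbouring gut and liver, 5 were called higher in FVF+ and 1 lower, against 30.5% and 25.2% of all genes. Their array means were 8.835 to 9.41 in FVF+ and 7.45 to 8.12 in FVF-. Whether FVF+ held gut or liver cells was not tested. Replicate 3 of FVF- at E14.5 stood apart: the mean of its 7 epithelial markers was 9.91, against 8.14 to 9.37 on the other FVF- arrays. It also had the highest Foxa2 signal of the FVF- arrays. In FVF+, E12.5 replicate 1 had a mesenchymal mean of 8.94, against 7.84 and 7.64 on the other arrays of its group. Results that rest on the FVF- array are given with and without it.

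The 5 acinar factors were all higher in FVF+ cells than in FVF- cells on each of the 4 days. As the mean of the daily differences, Nr5a2 was 14.2-fold higher (log2 difference 3.83 ± 0.27, SE, limma adjusted p = 5.4e-10), the 54th largest rise among 19296 genes. Bhlha15 was 10.1-fold higher (3.33 ± 0.15, adjusted p = 5.2e-13), and Rbpjl was 9.44-fold higher (3.24 ± 0.28, adjusted p = 1.0e-08). Ptf1a was 7.83-fold higher (2.97 ± 0.16, adjusted p = 6.1e-12), and Gata4 was 4.33-fold higher (2.12 ± 0.08, adjusted p = 7.4e-14). A call, here and throughout, is an adjusted p under 0.05, and 30.5% of all genes were called higher in FVF+ in this comparison. All 5 members were called higher on each of the 4 days taken singly, as were 9.22% of all genes. The share of all genes called higher was 17.2% at E12.5, then 15.8%, 23.1% and 24.4% on the following days. Within each day the arrays of the sorts did not overlap for any of the 5, which held in this direction for 28.9% of all genes at E12.5, and for 38.3%, 23.5% and 29.9% on the following days. These are bulk signals, in which fewer cells of a type and less RNA per cell cannot be told apart. The sort differences of the 5 members were called under every alternative run, including each array left out in turn.

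**Figure D1:**
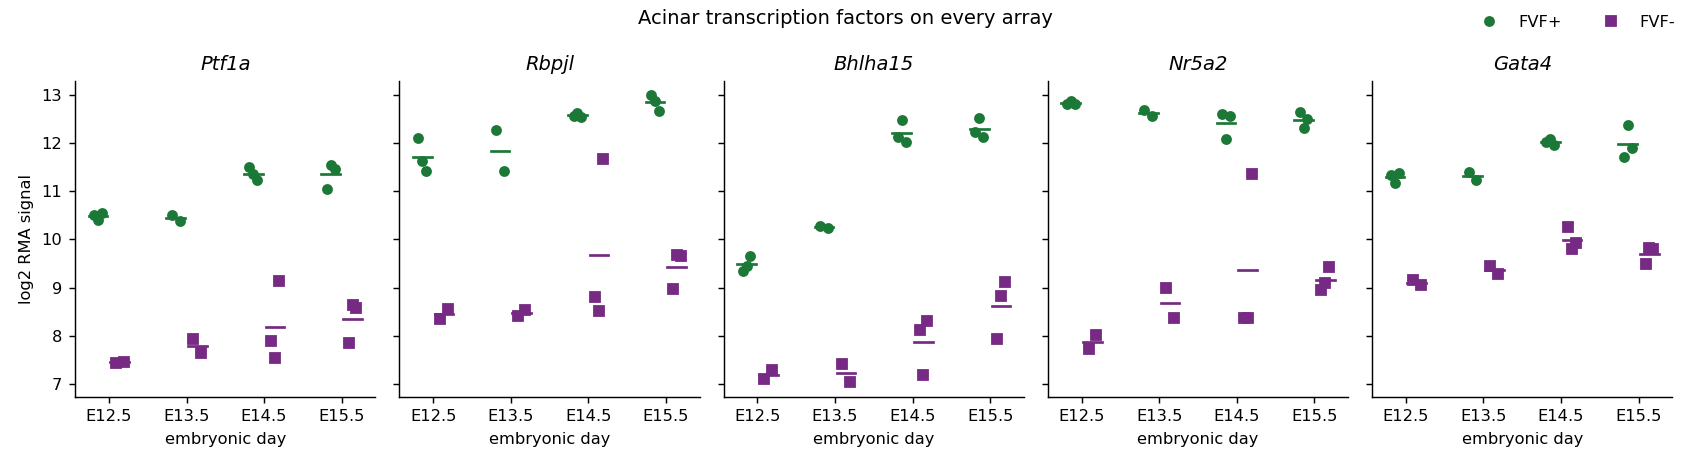
Log2 RMA signal (vertical axis) of each factor on every array by embryonic day (horizontal axis), with circles for FVF+, squares for FVF- and lines at group means (n = 2 or 3 arrays). On every day each FVF+ array lies above each FVF- array of that day for all 5 factors. Replicate 3 of FVF- at E14.5 lies far above its group for Rbpjl (11.67) and Nr5a2 (11.35).

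Ptf1a, the bHLH subunit of PTF1, was present in FVF+ cells from the first day and was higher at the later days. Its signals in FVF+ were 10.50, 10.40 and 10.54 at E12.5, 10.51 and 10.38 at E13.5, 11.51, 11.36 and 11.23 at E14.5, and 11.05, 11.54 and 11.47 at E15.5. In FVF- they were 7.44 and 7.45 at E12.5, 7.94 and 7.64 at E13.5, 7.89, 7.53 and 9.14 at E14.5, and 7.84, 8.63 and 8.57 at E15.5. All FVF+ arrays lay above all FVF- arrays, and within FVF+ the arrays of E12.5 and E13.5 lay below those of E14.5 and E15.5. Among all genes, 20.6% had FVF+ arrays of E14.5 all above E13.5, and 34.7% had those of E15.5 all above E12.5. Ptf1a rose in FVF+ by 0.87 ± 0.29 log2 units at E15.5 relative to E12.5 (SE, limma adjusted p = 0.0187), a change called higher for 27.6% of all genes. The call was lost when any of 3 single arrays was left out: the adjusted p was 0.0535 without FVF+ E12.5 replicate 2, 0.063 without FVF+ E15.5 replicate 2 and 0.0599 without FVF+ E15.5 replicate 3. The step from E13.5 to E14.5 was 0.92 ± 0.32 (adjusted p = 0.0828) and was called without FVF- E14.5 replicate 3 (adjusted p = 0.00685). That array was itself high for Ptf1a within its group (9.14), so the call follows from leaving it out. The sort difference stayed between 2.66 at E13.5 and 3.18 at E14.5.

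Rbpjl, the acinar counterpart of Rbpj in PTF1, was already high in FVF+ at E12.5. Its signals in FVF+ were 12.10, 11.63 and 11.42 at E12.5, 12.27 and 11.42 at E13.5, 12.57, 12.62 and 12.55 at E14.5, and 12.99, 12.87 and 12.67 at E15.5. In FVF- they were 8.34 and 8.56 at E12.5, 8.41 and 8.54 at E13.5, 8.81, 8.52 and 11.67 at E14.5, and 8.98, 9.67 and 9.66 at E15.5. Every E15.5 array in FVF+ lay above every E14.5 array, and every E14.5 array lay above those of the earlier days, which overlapped each other. Taken singly, such a separation held for 27.1% of all genes at E15.5 over E14.5 and for 20.6% at E14.5 over E13.5. FVF- E14.5 replicate 3 reached the range of the FVF+ arrays of E12.5 and E13.5, the only overlap between the sorts over all arrays for any of the 5 members. The other 4 members had no such overlap, which held for 7.81% of all genes in the direction of FVF+. Rbpjl at E15.5 exceeded its E12.5 level in FVF+ by 1.13 ± 0.52 (SE, limma adjusted p = 0.0839). The groups share 1 estimate of the spread, which includes the deviating FVF- array: without FVF- E14.5 replicate 3 the same difference of 1.13 had an SE of 0.21 and was called (adjusted p = 5.1e-04).

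Bhlha15, the factor of the secretory apparatus, had the largest change with time of the 5. Its signals in FVF+ were 9.35, 9.44 and 9.65 at E12.5, 10.27 and 10.23 at E13.5, 12.12, 12.48 and 12.03 at E14.5, and 12.22, 12.52 and 12.13 at E15.5. In FVF- they were 7.10 and 7.28 at E12.5, 7.42 and 7.03 at E13.5, 8.12, 7.18 and 8.30 at E14.5, and 7.93, 8.82 and 9.11 at E15.5. The FVF+ arrays fell into separate levels at E12.5, at E13.5 and at the later days, and those of E14.5 and E15.5 overlapped. Of all genes, 17.5% had FVF+ arrays of E13.5 all above E12.5, and 20.6% had those of E14.5 all above E13.5. In FVF+ Bhlha15 rose 7.01-fold by E15.5 relative to E12.5 (log2 difference 2.81 ± 0.27, SE, limma adjusted p = 5.5e-07), the 21st largest rise of 19296 genes. The step from E13.5 to E14.5 was 1.96 ± 0.30 (adjusted p = 4.9e-04), whereas the steps before it (0.77 ± 0.30, adjusted p = 0.424) and after it (0.08) were not called. Bhlha15 also rose in FVF- (1.43 ± 0.30, adjusted p = 0.00244). Its change in FVF+ exceeded that in FVF- by 1.38 ± 0.40 (adjusted p = 0.0234), and this difference of changes was called in either direction for 19.6% of all genes. The call was lost without FVF- E12.5 replicate 1 (adjusted p = 0.0517), without FVF- E12.5 replicate 2 (adjusted p = 0.1) or without FVF+ E15.5 replicate 2 (adjusted p = 0.051). Day by day its sort difference was 2.29, 3.03, 4.34 and 3.67.

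Nr5a2, the nuclear receptor, was high in FVF+ at all days, and its change there was not called with all arrays in the fit. Its signals in FVF+ were 12.82, 12.88 and 12.82 at E12.5, 12.68 and 12.57 at E13.5, 12.61, 12.08 and 12.56 at E14.5, and 12.64, 12.32 and 12.49 at E15.5. In FVF- they were 7.73 and 8.01 at E12.5, 8.99 and 8.36 at E13.5, 8.37, 8.36 and 11.35 at E14.5, and 8.94, 9.09 and 9.42 at E15.5. All E15.5 arrays in FVF+ lay below all E12.5 arrays, and in FVF- all E15.5 arrays lay above all E12.5 arrays. These separations held for 22.6% and 24.5% of all genes, respectively. In FVF+ the difference between E15.5 and E12.5 was -0.36 ± 0.50 (SE, limma adjusted p = 0.578), with a 95% interval of -1.41 to 0.70. Fitted on the FVF+ arrays of these days alone, the same difference was called (adjusted p = 0.0169). Day by day its sort difference was 4.97, 3.95, 3.06 and 3.33, and at E12.5 it was the largest of the 5 members. Its change in FVF+ was lower than that in FVF- by 1.64 log2 units (-1.64 ± 0.75, adjusted p = 0.133). Without FVF- E14.5 replicate 3 the same value of -1.64 had an SE of 0.25 and was called (adjusted p = 2.6e-04).

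Gata4, the zinc-finger factor, was the member with the smallest sort difference and a modest rise in both sorts. Its signals in FVF+ were 11.33, 11.18 and 11.37 at E12.5, 11.40 and 11.24 at E13.5, 12.02, 12.09 and 11.97 at E14.5, and 11.71, 12.37 and 11.89 at E15.5. In FVF- they were 9.15 and 9.05 at E12.5, 9.45 and 9.29 at E13.5, 10.25, 9.80 and 9.92 at E14.5, and 9.48, 9.83 and 9.81 at E15.5. Within FVF+ the arrays of E12.5 and E13.5 overlapped and lay below those of E14.5 and E15.5, which also overlapped. A separation of E14.5 above E13.5 in FVF+ held for 20.6% of all genes. Gata4 rose in FVF+ at E15.5 relative to E12.5 by 0.70 ± 0.15 (SE, limma adjusted p = 0.00107) and in FVF- by 0.61 ± 0.16 (adjusted p = 0.0129). The step from E13.5 to E14.5 was called in FVF+ (0.71 ± 0.16, adjusted p = 0.0102) and in FVF- (0.62 ± 0.16, adjusted p = 0.0299). The FVF- change was not called without FVF- E12.5 replicate 1 (adjusted p = 0.0592) or replicate 2 (adjusted p = 0.111), and the FVF+ step was not called without FVF+ E13.5 replicate 2 (adjusted p = 0.125). The FVF- step was not called without FVF- E13.5 replicate 2 (adjusted p = 0.299) or FVF- E14.5 replicate 1 (adjusted p = 0.127), with array weights (adjusted p = 0.138) or on the compared groups alone (adjusted p = 0.251). The sort difference lay between 1.95 at E13.5 and 2.28 at E15.5.

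**Figure D2:**
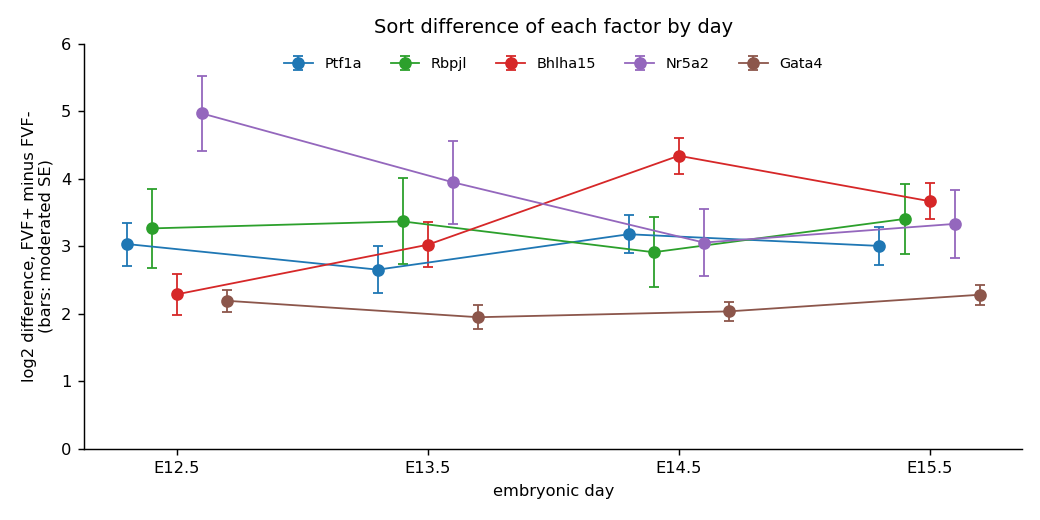
Log2 difference between FVF+ and FVF- (vertical axis, FVF+ minus FVF-) for each factor by embryonic day (horizontal axis), with bars for the moderated SE and points shifted sideways for clarity. Bhlha15 has 2.29 at E12.5 and 4.34 at E14.5, Nr5a2 has 4.97 at E12.5 and 3.06 at E14.5, and Gata4 stays between 1.95 and 2.28.

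With all arrays, 3 of the 5 members (Ptf1a, Bhlha15 and Gata4) were called higher in FVF+ over the whole interval, against 27.6% of all genes. Rbpjl, with a difference of 1.13, was called without FVF- E14.5 replicate 3 but not with it. No member was called for the step from E12.5 to E13.5, at which 0.00518% of all genes were called in either direction. Bhlha15 and Gata4 were called higher at E14.5 relative to E13.5, as were 5.88% of all genes. No member was called for the step from E14.5 to E15.5, at which 25.6% of all genes were called in either direction. In FVF- the step to E14.5 was called higher for Gata4 alone, as for 5.68% of all genes, and no member was called for the step to E13.5 (1.02% of all genes in either direction) or to E15.5 (6.49%). Without FVF- E14.5 replicate 3 the FVF- step of Nr5a2 to E15.5 was 0.79 and was called (limma adjusted p = 0.0293), against -0.21 with that array. Both FVF+ arrays of E13.5 carry a letter in place of a number in their sample code, as does 1 of the FVF- arrays of that day, so that in FVF+ the code and the day cannot be told apart. With a term for the letter code, which only FVF- E13.5 can estimate, the step to E14.5 was 1.57 for Bhlha15 (limma adjusted p = 0.272) and 0.55 for Gata4 (adjusted p = 0.599). Among letter-coded arrays alone the FVF+ minus FVF- difference at E13.5 was 3.22 for Bhlha15 and 2.03 for Gata4. Both FVF+ E13.5 arrays also had higher mesenchymal marker means (9.13 and 9.16) than the FVF+ arrays of the later days, which reached 9.03. Over the whole interval 4 of 8 mesenchymal markers were called higher in FVF+ (median difference 0.44), against 27.6% of all genes. Red blood cell markers averaged 8.87 on both FVF+ E13.5 arrays, against 7.31 to 8.06 on the FVF+ arrays of the later days. Endothelial marker means in FVF+ were 7.31 to 7.81 at E12.5, 7.82 and 9.43 at E13.5, 8.28 to 9.25 at E14.5 and 7.57 to 8.31 at E15.5. The part of these markers in the factors' changes was not tested.

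**Figure D3:**
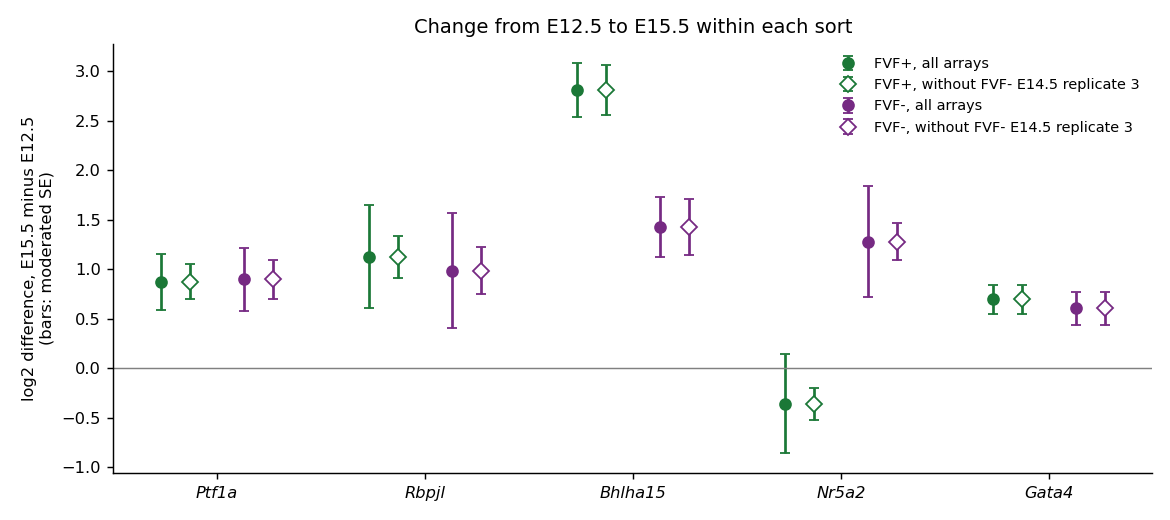
Log2 difference between E15.5 and E12.5 (vertical axis) for each factor in FVF+ and in FVF-, fitted with all arrays (filled circles) and without FVF- E14.5 replicate 3 (open diamonds), with bars for the moderated SE. The estimates do not move when the array is left out, and the SE of Rbpjl in FVF+ is 0.52 with it and 0.21 without it.

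In FVF- cells the signals of the factors were far lower, and they were on every array higher at E15.5 than at E12.5 for all 5 members, a separation found for 24.5% of all genes. With all arrays, 2 of the 5 (Bhlha15 and Gata4) were called higher at E15.5, against 10.7% of all genes. The other differences were 0.90 ± 0.32 for Ptf1a (SE, limma adjusted p = 0.0543), 0.99 ± 0.58 for Rbpjl (adjusted p = 0.272) and 1.28 ± 0.56 for Nr5a2 (adjusted p = 0.122). Without FVF- E14.5 replicate 3 these same differences were called, with adjusted p = 0.00354 for Ptf1a, 0.00676 for Rbpjl and 1.1e-04 for Nr5a2. In that fit 20.7% of all genes were called in either direction. The array left out stood apart in Rbpjl and Nr5a2 themselves and was 1.43 above the mean of its group's other arrays for Ptf1a. The smaller SE of these 3 members therefore follows from that choice. Marker lists of several cell types also changed in FVF-. Of the epithelial markers, 3 of 7 were called higher at E15.5 in FVF-, with a median difference of 0.75 against -0.005 over all genes. Their array means were 8.68 to 9.37 at E15.5 and 8.14 to 8.15 at E12.5. Mesothelial markers had 5 of 8 called higher (median 0.88), mesenchymal markers 4 of 8 higher and 1 lower (median 0.67), and red blood cell markers 1 of 4 higher and 3 lower (median -2.19). Macrophage markers had 3 of 6 higher (median 0.77), endothelial markers 1 of 5 (median 0.89) and neural crest and glia markers 1 of 2 (median 0.78). Gut and liver markers had 0 of 8 called (median 0.007). Of all genes, 10.7% were called higher and 9.7% lower. The part of these markers in the factors' change was not tested. For Ptf1a, Rbpjl and Gata4 the changes in the sorts differed by -0.03 (adjusted p = 0.971), 0.14 (adjusted p = 0.919) and 0.09 (adjusted p = 0.805).

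Replicate 3 of FVF- at E14.5 was set beside the mean of replicates 1 and 2 of its group. Rbpjl was at 11.67 in replicate 3, against 8.67 in the others, and Nr5a2 was at 11.35, against 8.37. Ptf1a was 1.43 higher in replicate 3 and Bhlha15 0.65 higher, and Gata4 differed by -0.11. The 7 epithelial markers were higher there by a median of 1.10, the 4 red blood cell markers by 0.97, the 12 progenitor transcription factors by 0.74, the 8 endocrine transcription factors by 0.84, the 26 acinar enzymes by 0.33, and the 8 mesenchymal markers differed by -0.12. The gap of the 5 factors was thus unequal, and the source of the signal was not tested. Without this array the E14.5 sort difference was 3.66 for Ptf1a, 3.92 for Rbpjl and 4.05 for Nr5a2, against 3.18, 2.91 and 3.06 with it.

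**Figure D4:**
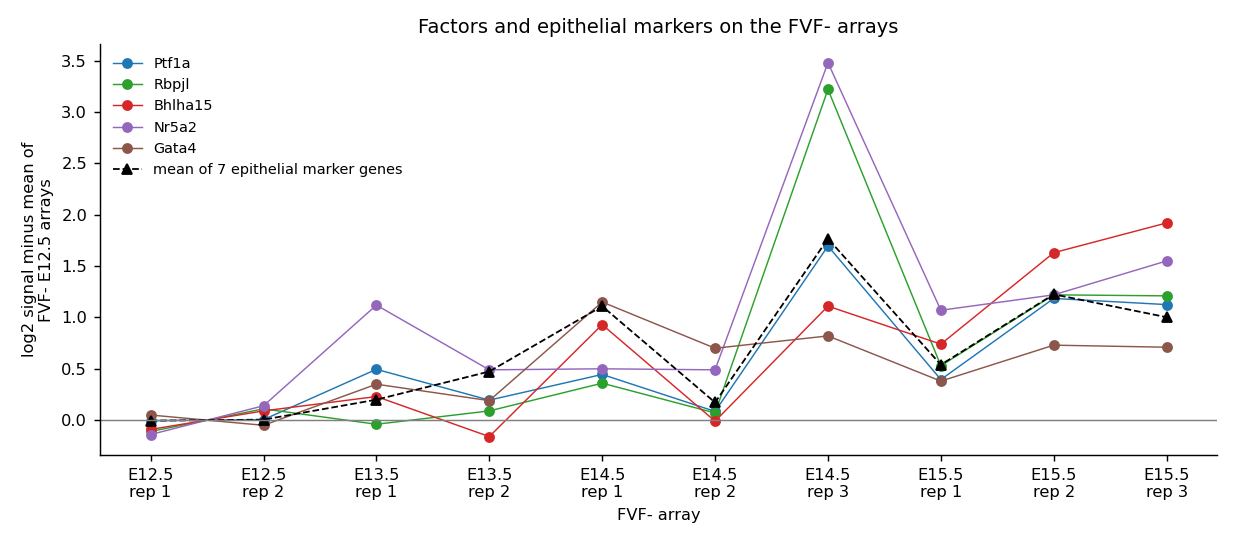
Log2 signal on each FVF- array minus the mean of the FVF- E12.5 arrays (vertical axis) for the 5 factors and for the mean of 7 epithelial markers, by array in order of day and replicate (horizontal axis). Rbpjl and Nr5a2 stand more than 3 log2 units up in replicate 3 of E14.5, while Gata4 on that array is close to its other E14.5 arrays.

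The partners of PTF1 went the other way from Ptf1a in FVF+. Rbpj, which Rbpjl replaces, fell in FVF+ by 0.67 ± 0.09 log2 units at E15.5 relative to E12.5 (SE, limma adjusted p = 2.5e-05). The E-proteins Tcf3, Tcf4 and Tcf12 fell by 0.46, 0.58 and 0.66 (adjusted p = 0.0025, 0.0205 and 9.8e-05), so 4 of 4 partners were called lower, against 19.3% of all genes. In FVF- only Tcf12 was called (-0.61 ± 0.12, adjusted p = 0.00109). The change of Rbpj was lower in FVF+ than in FVF- (difference of changes -0.48 ± 0.14, adjusted p = 0.0212), whereas for Tcf3 (-0.25), Tcf4 (-0.67) and Tcf12 (-0.05) that difference was not called. Between the sorts Rbpj differed by -0.08 ± 0.05 (adjusted p = 0.219), while Tcf4 was lower in FVF+ (-0.99 ± 0.11, adjusted p = 1.6e-07). Id proteins bind E-proteins and keep them from DNA, and 3 of their 4 genes were called higher in FVF+ than in FVF-, against 30.5% of all genes. They were Id2 (0.93), Id1 (0.47) and Id4 (0.17), while Id3 (-0.02) was not called. From E12.5 to E15.5 in FVF+, Id2 fell by 0.62 (adjusted p = 0.00355) and Id4 rose by 0.29 (adjusted p = 0.0333). The changes of Id1 (-0.02) and Id3 (-0.35) were not called.

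Gata6, the close relative of Gata4, was also higher in FVF+ than in FVF-, by 0.51 ± 0.05 (SE, limma adjusted p = 5.2e-08). Unlike Gata4 it fell in FVF+ at E15.5 relative to E12.5 (-0.47 ± 0.09, adjusted p = 5.7e-04), and in FVF- it rose (0.77 ± 0.10, adjusted p = 5.0e-05), with a called difference between these changes (-1.24 ± 0.14, adjusted p = 1.3e-05). The GATA cofactors parted by sort: Zfpm1 was higher in FVF+ by 1.15 ± 0.06 and Zfpm2 lower by 1.89 (-1.89 ± 0.09). Gata2 (-1.34), Gata3 (-0.82) and Gata1 (-0.27), which act mainly in blood and other lineages, were lower in FVF+, and Gata5 (-0.11) was not called. Of the relatives of Nr5a2, Nr0b2, a corepressor also called SHP, was higher in FVF+ by 2.63 ± 0.09 (adjusted p = 3.5e-14) and rose there with time by 0.51 (adjusted p = 0.0213). Nr5a1, the steroidogenic relative, showed no called sort difference (-0.002) and rose in FVF+ by 0.45, and Nr0b1 was not called in either comparison.

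Of 26 measured genes of digestive enzymes and other secreted acinar proteins, 23 were called higher at E15.5 than at E12.5 in FVF+ and 0 lower, against 27.6% of all genes called higher, with a median difference of 2.47 against 0.09 over all genes. The largest rises were those of the carboxypeptidase Cpb1 (5.99 ± 0.32), the ribonuclease Rnase1 (5.38 ± 0.36) and the elastase Cela3b (4.90 ± 0.29). Cpa1, a carboxypeptidase also used as an early progenitor marker, differed by 0.14 (adjusted p = 0.642), and the colipase Clps by 0.46 (adjusted p = 0.178). Array means of the list in FVF+ were 8.93 to 9.22 at E12.5, 9.35 to 9.42 at E13.5, 10.52 to 10.90 at E14.5 and 11.39 to 11.53 at E15.5. At the step from E14.5 to E15.5, where no factor was called, 16 of the 26 were called higher in FVF+ and 1 lower. Of all genes, 14.7% were called higher and 10.8% lower at that step. In FVF- 15 of 26 were called higher at E15.5 than at E12.5, against 10.7% of all genes, and 0 lower, with a median of 1.01, led by the lipase relative Pnliprp1 (6.19 ± 0.48) and the chymotrypsinogen Ctrb1 (5.42 ± 0.44).

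Of 16 genes of the secretory machinery linked to Bhlha15, 10 were called higher and 1 lower in FVF+ at E15.5 relative to E12.5, against 27.6% and 19.3% of all genes, with a median difference of 0.68. Pdia2, a pancreatic protein disulfide isomerase, rose by 5.38 ± 0.34, Rab3d, a GTPase of zymogen granules and a known Bhlha15 target, by 2.52 ± 0.16, and Creb3l1 by 2.02 ± 0.14. The syntaxin Stx3 fell (-0.39 ± 0.13), and the cholecystokinin receptor Cckar (0.84) and Vamp8 (0.26) were not called. Between the sorts 13 of the 16 were called higher in FVF+, against 30.5% of all genes, led by Cckar (4.31 ± 0.20), and Copz2 (-1.68), Creb3l1 (-1.50) and Itpr2 (-0.46) were lower.

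Of 12 measured progenitor transcription factors, 7 were called lower and 0 higher in FVF+ at E15.5 relative to E12.5, against 19.3% of all genes called lower (median -0.69), among them Onecut1 (-1.35 ± 0.54), Hhex (-1.27 ± 0.17) and Prox1 (-1.17 ± 0.37). Of 8 measured endocrine transcription factors, 3 were called higher, against 27.6% of all genes, namely Mafa (1.27), Pax6 (1.25) and Isl1 (1.20), while the endocrine starter Neurog3 differed by 0.53 (adjusted p = 0.22). All 12 and all 8 were called higher in FVF+ than in FVF- on average over the days, against 30.5% of all genes. The 12 include Foxa2, whose fusion defined the sort, so its own sort difference follows from the design.

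**Figure D5:**
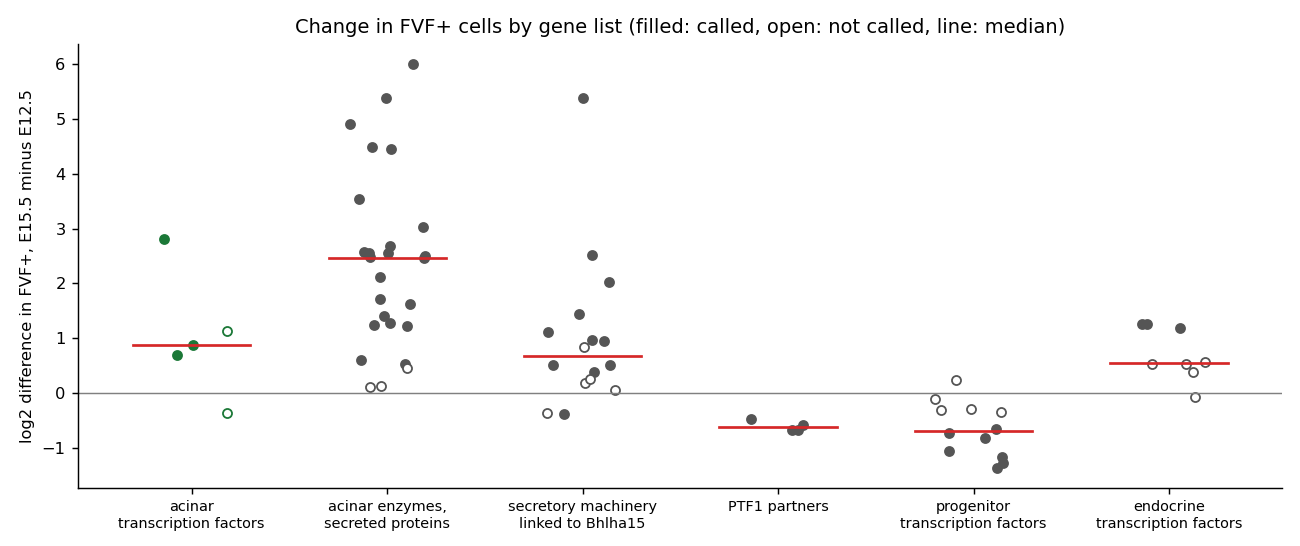
Log2 difference between E15.5 and E12.5 in FVF+ (vertical axis) for each measured gene of 6 lists (horizontal axis), with filled points for called genes, open points for genes not called and a line at each list's median. The median is 2.47 for acinar enzymes, 0.68 for secretory machinery and -0.69 for progenitor transcription factors, and Bhlha15 at 2.81 is the highest point among the acinar transcription factors.

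The genes whose pattern over all 21 arrays lay closest to each factor were found by the root mean square difference of log2 signals, after each gene was centred on its own mean. Predicted genes (symbols starting with Gm and a digit or with LOC, or ending in Rik) were passed over. Closest to Ptf1a was Llgl2 (0.30), to Rbpjl the amino acid transporter Slc38a3 (0.37), to Bhlha15 the secretory pathway gene Tmed6 (0.25), to Nr5a2 Gsta3 (0.39) and to Gata4 Nup210 (0.20). Next in order were Tmem54 and Ap1m2 for Ptf1a, Ap1m2 and Tinag for Rbpjl, Spink1 and Clu for Bhlha15, Sytl5 and Prox1 for Nr5a2, and Mmd2 and Ank for Gata4. The gap between the sorts is part of this distance. Mean sort differences of the closest genes were 2.765 to 3.43 for Ptf1a (itself 2.97), 3.34 to 3.55 for Rbpjl (3.24) and 2.95 to 3.56 for Bhlha15 (3.33). They were 3.655 to 4.02 for Nr5a2 (3.83) and 1.99 to 2.13 for Gata4 (2.12). Over the 11 FVF+ arrays alone, Tmed6 was again closest to Bhlha15 (0.22), followed by Tnfsf10 and Aldh1a1, while the closest genes of the other 4 members were different ones. They were Dnaja4, Ndufb6 and Cox6a1 for Ptf1a, Selenbp2, Map1b and Per2 for Rbpjl, Tbce, Ikzf2 and Oga for Nr5a2, and Slc6a9, Chchd10 and Gstm4 for Gata4. The mean sort differences of these genes ran from -0.54 (Slc6a9) to 1.16 (Chchd10), below those of the 4 members. The root mean square difference was small where a factor itself varied little, as for Nr5a2 in FVF+ (0.06 to Tbce).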

How the data were processed

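RNA was purified with RNeasy, amplified with the WT Expression kit and labelled with biotin, per the labels' protocols. The authors used RMA in affy 1.44.0, per the submitters' processing notes, and deposited log2 signals. The genome build and probe set definition are not given in the sources used here. Of 23305 probe sets, 20728 carried 1 gene symbol, 1174 several and 1403 none. The probe set with the highest mean was used per gene, which left 19296 genes.

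Group means of all 8 groups were fitted to the 21 arrays in limma 3.58.1 under R 4.3.3 (13 residual degrees of freedom), with no covariate. Two-sided p-values were adjusted over all genes with the Benjamini-Hochberg method, separately in 14 comparisons. All adjusted p-values are from limma, ± after a difference is its moderated SE, and precision is limited by how many arrays there were. No set test was run. The steps were checked on simulated data. Named genes were the 5 members, every gene of pathway lists of up to 7 genes (marker lists are given by counts and means), the largest called and some uncalled genes of longer lists, and 3 closest genes per member. The members and lists were chosen with earlier results of these data known. Alternatives were median centring, quantile and cyclic loess normalization, a filter on dim genes, mean or all probe sets, trended robust moderation, array weights, fits on the compared groups only, replicate blocks, letter-coded arrays, and each array left out.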

Additional observations from a re-analysis of the deposited data

Results flagged for a closer look

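The change of Bhlha15 between E12.5 and E15.5 differed between the sorts. It was larger in FVF+ than in FVF- by 1.38 log2 units (interaction term in limma, adjusted p = 0.0234), with changes of 2.81 in FVF+ and 1.43 in FVF-. No other member passed this test with all arrays, and 19.6% of all genes were called in it in either direction. Bhlha15 was called in 18 of the 21 fits that left out 1 array. The same test was passed by 1 of 4 PTF1 partners (Rbpj, -0.48) and 0 of 4 Id genes. It was also passed by 2 of 7 GATA relatives and cofactors (Gata6, -1.24, and Zfpm2, -0.83) and 1 of 3 NR5A relatives (Nr0b1, 0.69). Each value is the change in FVF+ minus that in FVF-. Groups of 2 or 3 arrays are too small for a test of single deviating arrays.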

How the results depend on the processing

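Sort differences of the 5 members kept their direction and their call under every alternative run. For the change in FVF-, Ptf1a was called under array weights (0.92), cyclic loess (0.97) and without dim genes (0.90), and Nr5a2 under array weights (1.30), so that weights gave 4 called members. Fits on the compared groups alone called all 5 members for the change in FVF+ (Rbpjl 1.13, Nr5a2 -0.36) and 5 for that in FVF- (Ptf1a 0.90, Rbpjl 0.99, Nr5a2 1.28), and 2 for the difference of changes (Nr5a2 -1.64). The shares of all genes called in these separate fits are not given here, so the counts cannot be set against them. With all groups fitted, 46.9%, 20.4% and 19.6% of all genes were called in either direction in these comparisons. Called members of the FVF- step to E14.5 numbered 0 under array weights, compared groups alone, the letter-code term and without letter-coded arrays, and 0 of the FVF+ step under the letter-code term, while 1 was called for the FVF- step to E15.5 under weights. The cause was not tested.

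In the following cases the sign turned, and neither value was called. Median centring gave -0.005 for Gata4 (FVF+ step to E13.5), -0.01 for Bhlha15 and -0.02 for Rbpjl (FVF- step to E13.5), and for Ptf1a 0.013 (FVF+ step to E15.5) and 0.037 (difference of changes). Quantile normalization gave -0.0013 for Rbpjl (FVF- step to E13.5), 0.087 for Gata4 (FVF+ step to E15.5), and for Ptf1a 0.0022 (FVF+ step to E13.5), 0.13 (FVF+ step to E15.5) and 0.12 (difference of changes). Cyclic loess gave 0.037 for Ptf1a and 0.10 for Gata4, and array weights -0.047 for Nr5a2 (FVF+ step to E15.5). The letter-code term gave for the step to E13.5 0.27 for Ptf1a, 0.42 for Nr5a2 and -0.0017 for Rbpjl in FVF+, and -0.04 for Rbpjl in FVF-, as did leaving those arrays out.

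Whether replicate numbers pair the samples could not be decided from the values. Over 10 pairs of arrays the deviations from group means correlated at -0.37 to 0.49, with 3 over 0.1. In 5 pairs the FVF+ array correlated best with its own number, among them replicates 1, 2 and 3 of E15.5. In groups of 2 arrays the deviations mirror each other, so the check cannot decide there. A fit with the replicate block turned Ptf1a (0.093 for the difference of changes and 0.087 for the FVF+ step to E13.5) and Nr5a2 (0.024 for that step), neither called.

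Leaving out each of the 21 arrays in turn gave 1 to 5 called members for the FVF- change, 0 to 2 for the difference of changes, 1 to 3 and 0 to 2 for the step to E14.5 in FVF+ and in FVF-, and 0 to 1 for the FVF- step to E15.5. The FVF+ change ranged from 0.78 to 1.03 for Ptf1a and 0.98 to 1.32 for Rbpjl, and the FVF- change from 0.76 to 1.16 for Ptf1a, 0.87 to 1.22 for Rbpjl, 1.14 to 1.42 for Nr5a2 and 0.55 to 0.72 for Gata4. The difference of changes ranged from 1.03 to 1.62 for Bhlha15, -1.78 to -1.50 for Nr5a2, -0.28 to 0.12 for Ptf1a, -0.088 to 0.33 for Rbpjl and -0.10 to 0.23 for Gata4. Steps whose sign turned in FVF+ were those to E13.5 for Ptf1a (-0.10 to 0.03), Rbpjl (-0.30 to 0.55) and Gata4 (-0.053 to 0.11), and those to E15.5 for Ptf1a (-0.11 to 0.14), Bhlha15 (-0.035 to 0.21), Nr5a2 (-0.10 to 0.16) and Gata4 (-0.23 to 0.10). In FVF- they were those to E13.5 for Rbpjl (-0.085 to 0.14) and Bhlha15 (-0.16 to 0.23), to E14.5 for Ptf1a (-0.08 to 0.73) and Nr5a2 (-0.31 to 1.19), and to E15.5 for Ptf1a (-0.17 to 0.64), Rbpjl (-0.80 to 0.77) and Nr5a2 (-0.71 to 0.79). The precision rests on 2 or 3 arrays per group, and no detection calls were analysed here, so how far the low FVF- signals lie above background is unknown.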
